A study of Mus musculus with 11 samples.

Results

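The genes Ppp1r1b, Drd2, Isl1, Ebf1, Zic1 and Prkcd mark the striatum or the thalamus, the deep neighbours of the neocortex, and are described here in the neocortex of mouse embryos. They are 6 of the 6041 genes named on the array, each measured by 1 probe, found by its gene symbol in the platform annotation. The 6 genes were selected with their mean ratios in these data already known, so those ratios and the fit's calls of them are given as a description and support nothing. The samples were neocortex of C57BL/6 embryos at embryonic day 18. Each of 11 two-colour arrays set total RNA of 1 null mutant sample, called synaptically silent in the labels, against pooled RNA of normal embryos, read here as 1 pool shared by all arrays. The mutant RNA was labelled with Cy3 on 6 arrays (1, 2, 6, 7, 8 and 10) and with Cy5 on 5 (3, 4, 5, 9 and 11). For arrays 1 and 6 one label gives the normal RNA as day 14 and another as day 18.

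The striatum consists mainly of inhibitory medium spiny neurons that receive dopamine from the midbrain. One class of them carries the D1 receptor and projects directly to the basal ganglia output nuclei, and the other carries the D2 receptor, encoded by Drd2. Ppp1r1b encodes DARPP-32, which becomes an inhibitor of protein phosphatase 1 when protein kinase A phosphorylates it after D1 receptor stimulation. Isl1, a LIM homeodomain factor, and Ebf1, a helix-loop-helix factor, act in the differentiation of D1-type striatal neurons. Isl1 also marks cholinergic neurons, and Ebf1 is also found in Cajal-Retzius cells, pericytes and meninges. Zic1, a zinc finger factor, marks the septum, medial thalamus and meninges. Prkcd encodes protein kinase C delta, which is abundant in relay neurons of the thalamus. Ratios carry no level, so whether a marker was expressed in the wild-type neocortex at all could not be read from these data.

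RefSeq promoters (GRCm38.p6) were at hand for 5 of the 6 genes. The 250 bases before a listed start are shown for 4 of them, because Prkcd, Zic1 and Isl1 lay below 0 on every array whereas Drd2 lay near 0. For Prkcd, with 2 listed starts, and for Drd2 the start used lies inside the RefSeq gene. These genes begin at 30626414 (Prkcd) and 49340360 (Drd2). Part of each of these 2 windows, including the marked GC boxes of Prkcd, thus lies within the gene. Capitals mark GC boxes (GGGCGG) and CCAAT boxes on either strand.
Prkcd, chr14:30626209-30626458, minus strand: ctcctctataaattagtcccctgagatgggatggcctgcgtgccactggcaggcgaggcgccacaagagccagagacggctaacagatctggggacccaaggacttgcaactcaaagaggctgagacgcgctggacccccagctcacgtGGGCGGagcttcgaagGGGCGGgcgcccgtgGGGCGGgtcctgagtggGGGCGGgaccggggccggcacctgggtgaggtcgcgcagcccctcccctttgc
Zic1, chr9:91365769-91366018, minus strand: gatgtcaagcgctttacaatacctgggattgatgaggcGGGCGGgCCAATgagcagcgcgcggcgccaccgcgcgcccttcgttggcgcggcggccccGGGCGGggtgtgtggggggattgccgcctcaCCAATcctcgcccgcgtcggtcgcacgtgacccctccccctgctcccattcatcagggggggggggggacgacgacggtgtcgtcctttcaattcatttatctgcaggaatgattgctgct
Isl1, chr13:116309689-116309938, minus strand: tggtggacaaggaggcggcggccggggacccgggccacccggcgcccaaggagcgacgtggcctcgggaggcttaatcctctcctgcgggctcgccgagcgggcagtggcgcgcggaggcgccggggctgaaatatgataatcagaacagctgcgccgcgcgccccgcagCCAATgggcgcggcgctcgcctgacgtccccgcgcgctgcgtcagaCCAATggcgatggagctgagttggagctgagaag
Drd2, chr9:49340153-49340402, plus strand: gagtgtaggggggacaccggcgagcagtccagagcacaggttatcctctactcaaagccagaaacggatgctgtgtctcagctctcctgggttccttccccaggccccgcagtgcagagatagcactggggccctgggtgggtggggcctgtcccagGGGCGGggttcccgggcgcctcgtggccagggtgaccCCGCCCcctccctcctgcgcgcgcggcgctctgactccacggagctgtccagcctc

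GC boxes numbered 4 in the Prkcd window and 2 each in the Zic1 and Drd2 windows, and 32.7% of all 32851 promoter windows of this length hold at least 1. CCAAT boxes numbered 2 in each of the Zic1 and Isl1 windows, against 33.8% of all windows with at least 1. The core of EBF factor sites (CCCNNGGG), the kind of site that Ebf1 binds, was found once in the Prkcd window and once in the Drd2 window, against 11.8% of all windows. The core letters of ISL1 sites (CTAATG) and of ZIC sites (CAGCAGG) were in none of the 5 windows, and in 6.36% and 8.44% of all windows. The Isl1 window also holds 2 half-sites of the cyclic AMP response element (TGACG), which 17.8% of all windows hold. The letters of the TATA box (TATAAA) were found once, in the Prkcd window, and in 12.4% of all windows. The matches describe the letters only.

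The values are deposited log ratios, taken as log2 of null over wild type. Neither the base nor the direction is given in the sources used here. The direction is likely from Xist, an RNA made in female cells, which lay between -7.37 and -4.18 on 6 arrays and between 0.00 and 0.67 on 4. Male nulls against a pool that holds females give such values, and the reverse would need a pool without females. Arrays carried 4822 to 6316 values each, and all 6 genes had values on all 11. A linear model with a dye term was fitted to the 5399 probes measured on at least 8 arrays, which all 6 genes passed. Errors are standard errors (SE) of that model, and the threshold is an adjusted p of 0.05. In whole tissue, fewer cells of a type and less RNA per cell cannot be told apart. Neither can a property of the wild-type pool, read as shared, and a property of the nulls.

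Prkcd had the lowest ratio of the 6. Its log2 ratio was lowest at -1.25 on array 2, had a median of -0.87, and was highest at -0.46 on array 5. All 11 values were below 0, and the fitted mean was -0.88 ± 0.07 (SE, n = 11), or 54.4% of the wild-type level. The probe stood at place 21 from the bottom of the 5399 tested.

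Ppp1r1b came next among the signalling genes. Its log2 ratio ranged from -1.02 on array 1 to -0.49 on array 4, with a median of -0.68. Every array was below 0, and the next lowest after array 1 was array 11 at -0.93. The fitted mean was -0.71 ± 0.05 (SE, n = 11), or 61.0% of the wild-type level.

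Drd2, the receptor of the other class of striatal neurons, did not share these low ratios. Its log2 ratio was lowest at -0.37 on array 9 and -0.34 on array 11, had a median of -0.03, and was highest at 0.16 on array 10. It was below 0 on 8 of 11 arrays, and the arrays other than 9 and 11 lay between -0.06 and 0.16. The fitted mean was -0.06 ± 0.05 (SE, n = 11), or 95.7% of the wild-type level. The mean was 0.02 ± 0.09 (SD) over the 6 Cy3 arrays and -0.15 ± 0.19 (SD) over the 5 Cy5 arrays. Its sign thus differed between the orientations, but the 2 low arrays, 9 and 11, are both Cy5 arrays. The dye term of Drd2 did not pass (limma, adjusted p = 0.317).

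Among the transcription factors Zic1 was the lowest and the least even. Its log2 ratio ranged from -1.14 on array 9 and -0.90 on array 4 to -0.10 on array 6, with a median of -0.48. All arrays were below 0, with a fitted mean of -0.53 ± 0.07 (SE, n = 11). Isl1 was smaller in size but even, from -0.58 on array 5 to -0.15 on array 2, with a median of -0.27 and a fitted mean of -0.30 ± 0.04 (SE, n = 11). After the dye term its SD between arrays was 0.11, and only 6.11% of tested probes had a smaller one. Ebf1 ranged from -0.51 on array 5 and -0.49 on array 11 to 0.18 on array 1, with a median of -0.24. It was below 0 on 10 of 11 arrays, array 1 being the exception, and the fitted mean was -0.25 ± 0.05 (SE, n = 11).

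**Figure D1:**
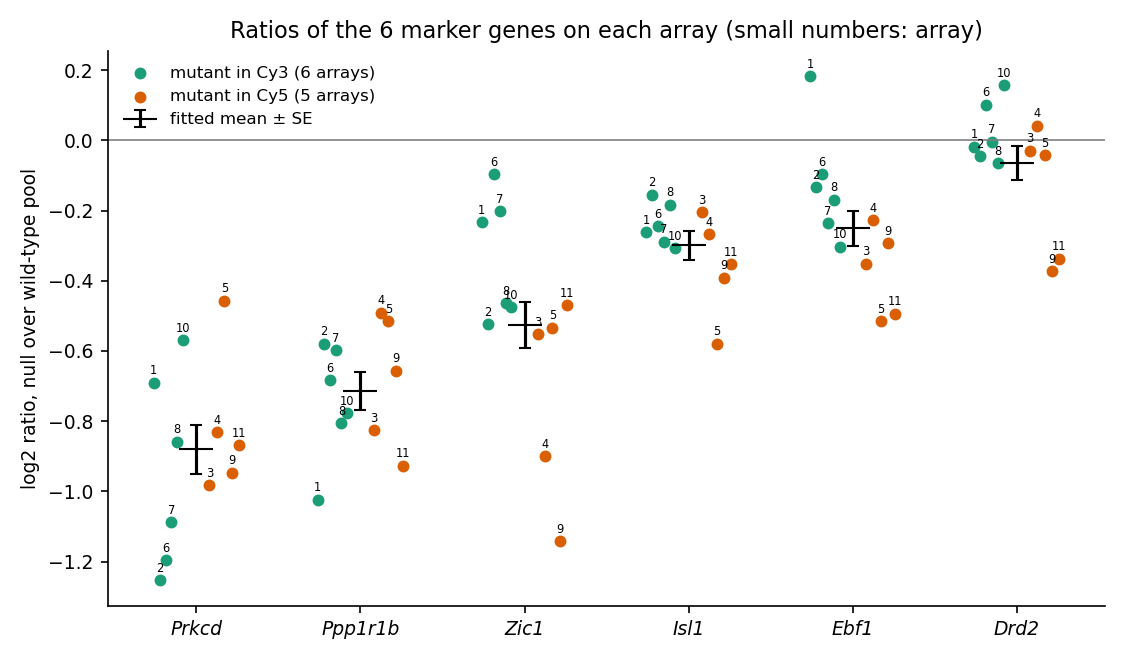
Log2 ratio of null over wild-type pool (vertical axis) of the 6 genes on each array, coloured by the dye of the mutant RNA, with the fitted mean and its SE in black. Prkcd, Ppp1r1b, Zic1 and Isl1 lie below 0 on all 11 arrays, Ebf1 is above 0 on array 1, and Drd2 straddles 0.

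From lowest to highest, the fitted means ran Prkcd, Ppp1r1b, Zic1, Isl1, Ebf1 and Drd2. Neighbours in this order overlapped between arrays in every case. With limma, 5 of the 6 genes (all but Drd2) were called lower, against 14.0% of all tested probes called lower and 28.6% called in either direction, and 4 were lower on every array, against 5.17%. The genes were selected on this contrast, so nothing is read from these counts.

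The dye orientation, which played no part in the selection, moved some genes more than others. Zic1 averaged -0.33 ± 0.18 (SD) on the 6 Cy3 arrays and -0.72 ± 0.29 (SD) on the 5 Cy5 arrays, and Ebf1 -0.13 ± 0.17 and -0.38 ± 0.13. In the Cy3 arrays Ppp1r1b averaged -0.74 ± 0.16 and Prkcd -0.94 ± 0.28, against -0.68 ± 0.19 and -0.82 ± 0.21 in the Cy5 arrays. Thus the 3 transcription factors and Drd2 were lower in Cy5, and Ppp1r1b and Prkcd lower in Cy3. None of the 6 dye terms passed limma's test, with adjusted p of 0.125 for Zic1, 0.161 for Ebf1 and 0.317 to 0.768 for the others. The dye term passed for 4 of 5399 probes (0.0741%). The Zic1 means of the orientations lay 0.39 apart.

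A second question was whether the 6 genes vary together between arrays, as markers of deep structures could where dissections differ. The part of dissection in the ratios was not tested. Each value was set against the mean of its dye orientation, and the deviations of 2 genes were correlated over the 11 arrays. The 15 Pearson correlations ran from -0.62 to 0.36 with a median of -0.12, and 6 of 15 were above 0. Over all 6828360 pairs of the 3696 genes with complete values the median was 0.04 and 53.0% were above 0. By exact permutation within orientations (two-sided, 86400 orders), 0 of 15 pairs passed after Benjamini-Hochberg adjustment, 1 had an unadjusted p under 0.05 by Pearson's r and 0 by Spearman's rho. With 11 arrays these tests do not show that the genes are independent of one another. If all arrays share the wild-type RNA, as read here, a constant difference of the pool would leave no trace in deviations between arrays. Were the pools separate, their differences would enter the deviations.

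The pair with the most extreme correlation ran in opposite directions. Isl1 and Prkcd had r = -0.62 (exact permutation p = 0.032, adjusted p = 0.480) and rho = -0.52 (exact permutation p = 0.0886, adjusted p = 0.966). Array 5 held the lowest Isl1 and the highest Prkcd, and leaving out 1 array at a time gave r between -0.68 and -0.38. Without arrays 3 and 5, the farthest from the median of Isl1, r was -0.37 (exact permutation p = 0.359). Within the orientations r was -0.53 on the Cy3 arrays and -0.85 on the Cy5 arrays. Isl1 and Ebf1, both factors of D1-type neurons, had the highest correlation, r = 0.36 (exact permutation p = 0.245, adjusted p = 0.948) and rho = 0.46 (exact permutation p = 0.175, adjusted p = 0.966), and r = 0.22 without arrays 3 and 5. Ppp1r1b correlated with Isl1 at r = -0.19 and with Ebf1 at r = -0.25, the latter being -0.68 on the Cy3 and 0.34 on the Cy5 arrays. Ppp1r1b and Drd2, which meet in the same signalling pathway, had r = 0.35 (exact permutation p = 0.344, adjusted p = 0.948), rho = 0.38 (exact permutation p = 0.315), and r = 0.07 without arrays 1 and 11. Prkcd and Zic1, the thalamic pair, had r = 0.05 (exact permutation p = 0.882) and rho = -0.02 (exact permutation p = 0.966).

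**Figure D2:**
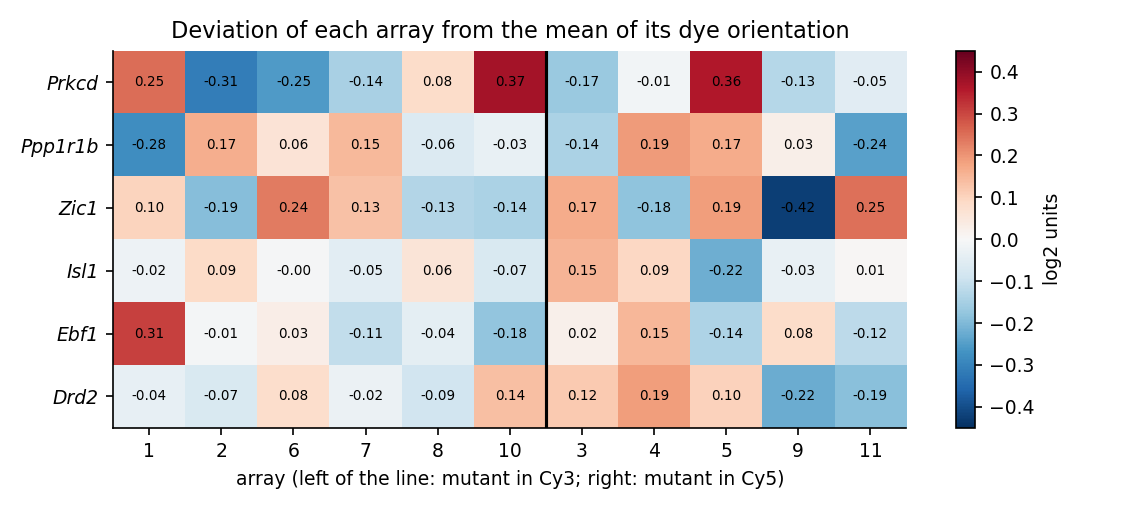
Deviation of each array (columns) from the mean of its dye orientation, in log2 units, for the 6 genes (rows); red is above and blue below that mean. No column is of 1 colour: on each array between 2 and 4 of the 6 genes lie below their mean.

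Some arrays held the low extremes of several genes and others did not. Array 5 had the lowest Isl1 (-0.58) and Ebf1 (-0.51), and array 11 the second lowest Ppp1r1b (-0.93), Ebf1 (-0.49) and Drd2 (-0.34). Array 9 had the lowest Zic1 (-1.14) and Drd2 (-0.37) and a Ppp1r1b of -0.66, near its median. Array 1 had the lowest Ppp1r1b (-1.02) and the highest Ebf1 (0.18). Array 2 had the lowest Prkcd (-1.25) and the highest Isl1 (-0.15). On every array between 2 and 4 of the 6 genes lay below their orientation's mean.

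The setting shifted the centre of these correlations but called no pair. With the ratios as deposited, which leave the dye difference in, the median r was 0.08, and Isl1 and Ebf1 reached r = 0.58 (permutation p = 0.0682, adjusted p = 0.512). With the arrays scaled to the same spread, 12 of 15 pairs were above 0, the median r was 0.11, and Isl1 and Prkcd stood at -0.11. Over all gene pairs the median r under that scaling was 0.03, with 52.6% of pairs above 0. The spread of all values was widest on array 4 (median absolute deviation 0.48). Scaling divides each ratio by its array's spread, so on array 4 it draws all genes with ratios below 0 toward 0 together. The higher r under scaling is therefore not read as joint variation, and all gene pairs are not a like comparison for it.

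**Figure D3:**
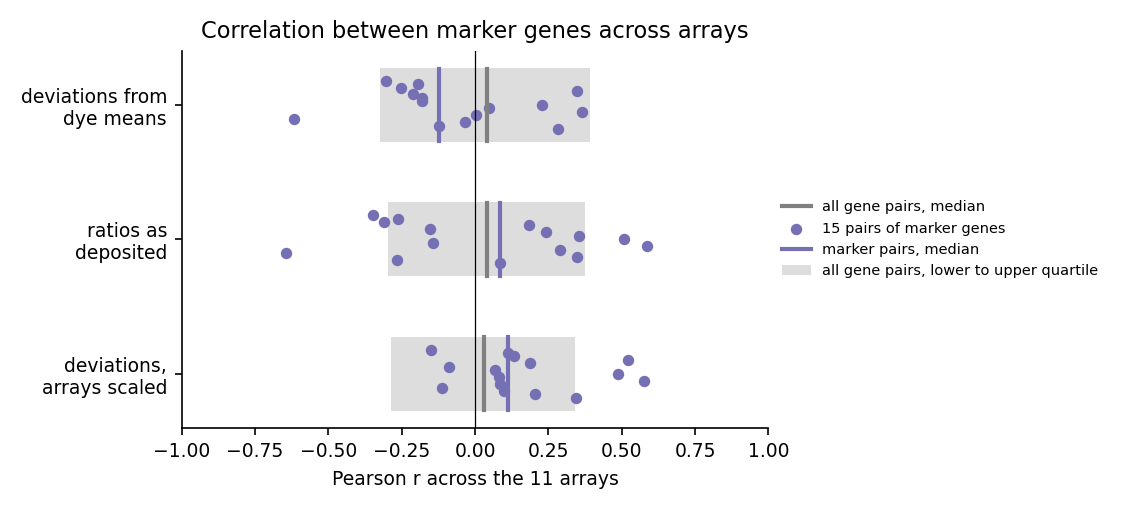
Pearson r across the 11 arrays for the 15 pairs of the 6 genes (points, purple line at their median) under 3 settings, with the median and the range from lower to upper quartile over all gene pairs in grey. The medians of the 15 pairs are -0.12, 0.08 and 0.11, each inside the grey range.

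Other genes of the striatum were mostly close to 0. Of 47 genes listed for the striatum 32 were on the array and 27 were tested, 4 of them among the 6 genes. Of the other 23, 4 fell, 0 rose and 19 did not pass by limma over all genes, against 14.3% lower and 14.5% higher, 28.8% together, among the 4812 genes tested. At an unadjusted p under 0.05, 6 were lower and 0 higher. The share of all genes at that unadjusted limit is not given, so nothing is read from this count or the later ones like it. Their median was -0.02, against -0.01 over all genes. Rxrg, a retinoid receptor of the striatum, fell by 0.54 ± 0.09 (SE, n = 10, adjusted p = 0.00078) and was lower on 9 of 10 arrays. Cnr1, the cannabinoid receptor of striatal and other neurons, fell by 0.25 ± 0.05 (n = 11, adjusted p = 0.0013), on 11 of 11. The other 2 were the striatal phosphatase Ptpn5, which fell by 0.21 ± 0.05 (adjusted p = 0.0065), and Gnal, the G protein subunit that couples D1 receptors, which fell by 0.20 ± 0.07 (adjusted p = 0.047). Gnal was singled out after its value was seen, and it kept its call in 2 of the 11 fits that left out 1 array. It lost it without array 1, 2, 3, 4, 6, 7, 8, 10 or 11. Rarb, among the 19 that did not pass, stood at -0.20 ± 0.09 (adjusted p = 0.093) as the average of 2 probes. Only 1 of these was measured on enough arrays to be tested alone. That probe was at -0.36 ± 0.07 (n = 11, limma adjusted p = 0.0014 over all probes). Rarb was named after these values were seen.

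For the thalamus, 14 of 25 listed genes were tested, 2 of them among the 6. Of the other 12, 2 fell, 1 rose and 9 did not pass, against 14.3% lower and 14.5% higher among all genes. Their median was -0.04, and at an unadjusted p under 0.05, 4 were lower and 1 higher. Calb2, the calcium-binding protein calretinin, fell by 0.49 ± 0.06 (n = 11, adjusted p = 7.5e-05), lower on 11 of 11 arrays, and is also a marker of interneurons and Cajal-Retzius cells. Zic4, a relative of Zic1, fell by 0.28 ± 0.08 (n = 8, adjusted p = 0.019), lower on 7 of 8. With values on 8 arrays, Zic4 was not tested when array 1, 3, 4, 5, 6, 7, 8 or 9 was left out. Zic2 rose by 0.13 ± 0.04 (n = 11, adjusted p = 0.042), on 10 of 11 arrays, and lost its call without any 1 of arrays 2, 3, 4, 6, 7, 8, 9, 10 and 11. Tcf7l2, a transcription factor that marks the thalamus, did not pass at -0.41 ± 0.16 (n = 10, adjusted p = 0.069), below 0 on 8 of 10 arrays. Among the fits that left out 1 array it passed only without array 1, with an adjusted p of 0.00046, and it was named after its value was seen. Of the 11 genes listed for the septum and the cholinergic basal forebrain, 5 were tested beside Zic1 and Isl1, and 0 passed, also at an unadjusted p under 0.05 (median 0.04). That median is the value of Lhx6, named because its 2 averaged probes went opposite ways. They stood at -0.20 ± 0.08 (limma adjusted p = 0.071) and 0.28 ± 0.12 (limma adjusted p = 0.093). Ngfr, the low-affinity neurotrophin receptor, stood at 0.07 ± 0.05. Nkx2-1, the homeodomain factor of the ventral forebrain, stood at -0.07 ± 0.09 and among those fits passed as lower only without array 4 (adjusted p = 0.032).

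On single arrays the median of the other striatal genes lay between -0.21 (array 3) and 0.15 (array 1), and that of the other thalamic genes between -0.22 (array 3) and 0.04 (array 2). The striatal median was below 0 on 10 of 11 arrays and the thalamic one on 8. The list for cortical projection neurons, the cells of the dissected region itself, also holds progenitor genes such as Eomes and Pax6. Its genes had a median above 0 on all 11 arrays, between 0.07 and 0.35. Of those 28 genes 13 rose and 1 fell, against 14.5% and 14.3% of all genes (3 rose on the Cy5 arrays alone), with Eomes (0.44 ± 0.06), Crym (0.40 ± 0.06), Neurod6 (0.40 ± 0.07) and Fezf2 (0.32 ± 0.05) of smallest p. The 1 that fell was the subplate gene Ccn2 (-0.22 ± 0.06), chosen after its value was seen, and it lost its call without array 7 or 11. Each of the 6 genes was then correlated over arrays with these 3 medians, as deviations, and 0 of the 18 relations passed after adjustment (2 at an unadjusted p under 0.05). Ebf1 went with the striatal median at r = 0.84 (exact permutation p = 0.0124, adjusted p = 0.223) and rho = 0.69 (exact permutation p = 0.0349, adjusted p = 0.629). Without arrays 1 and 4, where the striatal median lay farthest out, r was 0.36 (exact permutation p = 0.405). Within the orientations r was 0.97 on the Cy3 arrays and 0.58 on the Cy5 arrays. Ppp1r1b went with the cortical median, at r = 0.68 (exact permutation p = 0.0363, adjusted p = 0.327), rho = 0.55 (exact permutation p = 0.106, adjusted p = 0.729) and r = 0.48 without arrays 1 and 7 (exact permutation p = 0.307). Its r with the striatal median was -0.25.

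**Figure D4:**
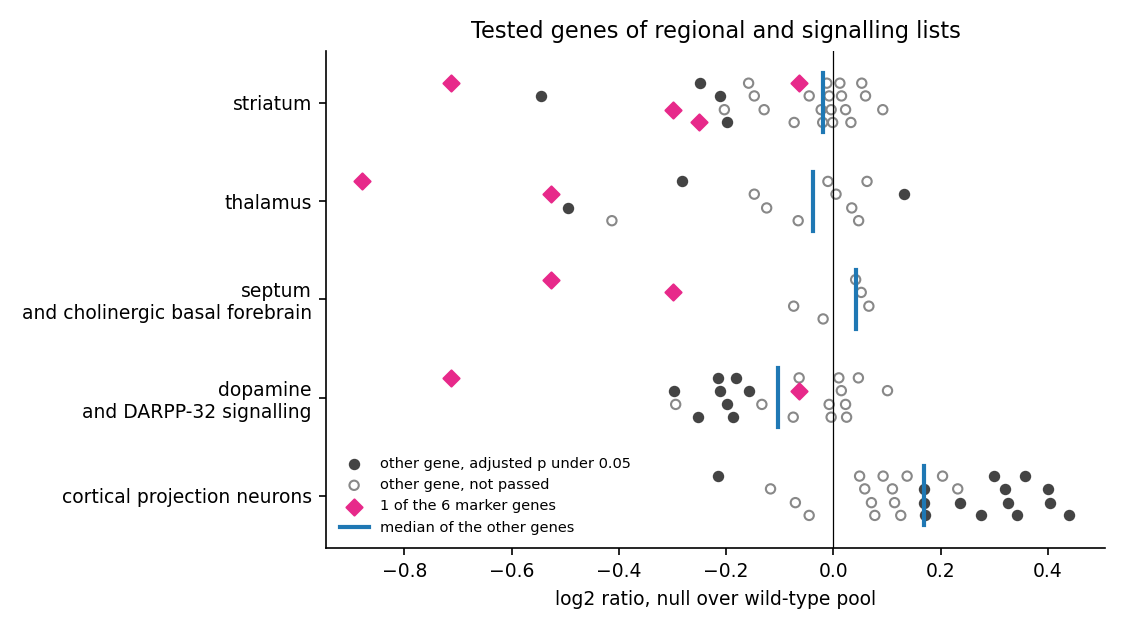
Log2 ratio of null over wild-type pool (horizontal axis) of every tested gene in 5 lists; diamonds are the 6 genes, filled points other genes with an adjusted p under 0.05, open points those that did not pass, and the blue line the median of the other genes. All diamonds in those lists lie left of the medians of -0.02 for striatum and -0.04 for thalamus, Drd2 (-0.06) only just, and the cortical genes centre on 0.17.

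Ppp1r1b and Drd2 belong to the pathway by which dopamine acts through protein kinase A and DARPP-32. Of its 20 other tested genes, 8 fell (against 14.3% of all genes), 0 rose and 12 did not pass, with a median of -0.10, and at an unadjusted p under 0.05 10 were lower and 0 higher. Prkaca, the catalytic subunit of protein kinase A, fell by 0.30 ± 0.05 (n = 11, adjusted p = 0.00041), on 11 of 11 arrays. Ppp3cb, a catalytic subunit of calcineurin, the phosphatase that removes the activating phosphate from DARPP-32, fell by 0.21 ± 0.05 (adjusted p = 0.0050), also on 11 of 11. Ptpn5 and Gnal are counted here again. The D1 receptor gene Drd1 stood at -0.00 ± 0.15 (n = 8), below 0 on 7 of 8 arrays. Its dye term was 0.26, and with that SE the mean near 0 does not show that Drd1 was unchanged. Drd1 was not tested when array 1, 2, 3, 4, 7, 8, 9 or 10 was left out. Drd4 stood at 0.01 ± 0.05 (n = 11). Drd5, which is not among those 20 genes and is counted with the family relatives, rose by 0.24 ± 0.08 (n = 9, adjusted p = 0.038). Drd5 lost its call without array 1, 2, 6, 7, 8 or 11. The count of 8 was 5 without array 8 or without arrays 1 and 6, 4 at an adjusted p of 0.01, 4 on the Cy3 arrays alone and 0 on the Cy5 arrays alone. Most genes of this pathway are expressed by neurons of all regions.

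Relatives of the 6 genes went both ways in the Zic and protein kinase C families. The only tested relatives of Ebf1 and Ppp1r1b stood below 0, and Isl1 had no tested relative. Among the Zic genes, Zic1 was at -0.53 and Zic4 fell, whereas Zic2 rose and Zic5 stood at 0.06 ± 0.07. Ebf2, the relative of Ebf1, stood at -0.13 ± 0.06 (adjusted p = 0.096). Among the protein kinase C genes beside Prkcd, Prkcb fell by 0.47 ± 0.06 (adjusted p = 0.00012) and Prkce by 0.29 ± 0.06 (adjusted p = 0.0018), each on 11 of 11 arrays, whereas Prkca rose by 0.23 ± 0.07 (adjusted p = 0.019), on 10 of 11. Prkch (0.07), Prkci (-0.10) and Prkcz (0.01) did not pass. Ppp1r1a, the phosphatase inhibitor most like Ppp1r1b, fell by 0.23 ± 0.06 (n = 8, adjusted p = 0.017), and was not tested when array 1, 2, 3, 4, 5, 6, 7 or 8 was left out. In all, 4 of 14 relatives fell, 3 rose and 7 did not pass (median 0.00), against 14.3% lower and 14.5% higher among all genes. The counts were 2 and 0 on the Cy5 arrays alone, and between 2 and 4 and between 1 and 3 with 1 array left out.

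Cell types that share these markers gave mixed values, and their part in the ratios of the 6 genes was not tested. Over all genes 14.5% were called higher and 14.3% lower, and each count here stands beside those shares. Meninges and choroid plexus, which express Zic1 and Ebf1, had 6 of 13 tested genes higher and 1 lower (median 0.21). Ogn (0.58 ± 0.07), Col1a1 (0.42 ± 0.08), Mgp (0.29 ± 0.05) and Igfbp2 (0.19 ± 0.05) were those of smallest p. Folr1, a folate receptor of the choroid plexus chosen after its value was seen, was the 1 that fell (-0.15 ± 0.05), and it kept its call in 2 of the 11 fits that left out 1 array. The list's median lay between 0.01 and 0.34 on single arrays. Of 4 pericyte genes Abcc9 (0.27 ± 0.07) and Kcnj8 (0.17 ± 0.06) rose, Rgs5 fell by 0.31 ± 0.09 and Anpep stood at 0.10 ± 0.05. With any 1 array left out, at most 1 pericyte gene rose. Of 6 Cajal-Retzius genes beside Ebf1, Cacna2d2 fell by 0.62 ± 0.05 and Calb2 by 0.49, 0 rose and 4 did not pass. Those 4, given to complete the list, were Reln (0.03 ± 0.05), Lhx1 (0.09 ± 0.06), Lhx5 (-0.01 ± 0.05) and Ebf2 (-0.13 ± 0.06). GABAergic neurons, the class to which medium spiny neurons belong, had 3 of 12 genes lower and 0 higher (median -0.01). These were Calb1, which also marks medium spiny neurons, at -1.46 ± 0.10, the vesicular GABA transporter Slc32a1 at -1.02 ± 0.06, and Calb2. Gad1, the enzyme of GABA synthesis, stood at 0.14 ± 0.05 (adjusted p = 0.062).

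Across the 3695 other genes with complete values, those with the most similar deviations over the 11 arrays were in none of the lists above. For Ppp1r1b they were Rassf1 (r = 0.87), Plin4 (0.84) and Ift122 (0.83), and for Zic1 they were Ptpn12 (0.85), Slc12a2 (0.83) and Hmgxb3 (0.79). Isl1 was closest to H2bc22 (0.90), Moxd1 (0.85) and Cnot9 (0.84), and Ebf1 to Ddr1 (0.87), Scd1 (0.86) and Crot (0.85). Drd2 was closest to Slc6a2 (0.97), Theg (0.95) and Phyh (0.95), and Prkcd to Taf6 (0.94), Enah (0.85) and Tyro3 (0.80). These r are descriptions over 11 arrays that are read as sharing the wild-type RNA, the highest 3 of 3695 for each gene. The mean log2 ratios of these similar genes ran from -0.37 ± 0.11 for Scd1 to 0.25 ± 0.05 for Slc12a2. Slc6a2 stood at -0.25 ± 0.05, Rassf1 at 0.10 ± 0.05 and Taf6 at 0.02 ± 0.04.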

How the data were processed

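Total RNA of 11 null neocortices was compared with wild-type RNA on 11 two-colour arrays. The authors deposited 1 log ratio per probe and array, treated as log2; the sources used here do not give its background correction, normalization, base or direction. Nothing says whether embryos share litters, and p-values measure the spread between these samples. The mutated gene is not reported here.

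Probes were named from the platform annotation: 6269 of 6856 had 1 symbol, 6 several and 581 none, and 6250 were updated through Entrez identifiers to RefSeq (GRCm38.p6). Probes on at least 8 arrays and at least 3 per dye orientation were fitted with limma 3.58.1 (R 4.3.3), for a mean and a dye effect, Benjamini-Hochberg adjustment over all probes (or all 4812 genes, probes averaged) and two-sided tests of the mean against 0. This leaves out the spread among wild-type embryos. The fit and the permutation test were tested on simulated data. In a simulation with 162 calls in all, the fit called 42% of log2 shifts of 0.2 and 68% of 0.3. It called 92% of shifts of 0.5 and 100% of 1. A gene that did not pass is thus not shown to be unchanged. Correlations used numpy 2.4.6.

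The 6 genes and all lists were chosen with earlier results of these data known. Named besides the 6 are up to 4 genes of smallest p per list (the 6 included), all measured family relatives, and the 3 genes most like each of the 6; exceptions are marked. Alternatives changed the dye term, arrays, centring, scale, weights, probes tested, variance and threshold. Promoters are RefSeq's.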

Additional observations from a re-analysis of the deposited data

Results flagged for a closer look

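Array 5 stood apart for Prkcd among the 5 arrays with the mutant in Cy5. Its log2 ratio of -0.46 was separated from the next, -0.83 on array 4, by 0.711 of the whole range of the 5 values, against a critical value of 0.71. Chance alone exceeds that value in about 1 of 20 groups, and 12 groups (6 genes in 2 orientations) were looked at. Array 5 was also the array of lowest Isl1 (-0.58) and Ebf1 (-0.51).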

How the results depend on the processing

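The ratios of the 6 genes moved by less than their SD between arrays under all 20 alternatives, and only Drd2 changed sign (0.02 on the Cy3 arrays alone). Zic1 ranged from -0.72 (Cy5 arrays alone) to -0.33 (Cy3 arrays alone), Ebf1 from -0.38 to -0.13, Prkcd from -0.94 to -0.82 and Ppp1r1b from -0.74 to -0.68. The count of called probes was 468 on the Cy5 arrays alone, 811 at an adjusted p of 0.01, and 1170 to 1572 with 1 array left out. Of the other thalamic genes, 1 fell and 0 rose with no dye term or at an adjusted p of 0.01, 1 fell when only probes on all 11 arrays were tested, and 0 rose on the Cy5 arrays alone or with probes on at least 3 arrays, where 1 striatal gene rose. Without arrays 1 and 6, whose normal RNA has conflicting day labels, 3 of the other thalamic genes fell and 1 rose. With 1 array left out, 1 to 3 thalamic genes fell and 0 to 1 rose, and 3 to 4 striatal genes fell and 0 to 1 rose. Zic4, with 8 arrays, then often went untested; for the other shifts the cause was not tested. The median correlation between the 6 genes was 0.21 on the Cy5 arrays alone and -0.13 to 0.09 with 1 array left out; 0 pairs passed under any of the 17 alternatives run for correlations. No paired analysis was possible because each array already holds its own null and the wild-type RNA, read as shared, in 1 group. The 11 arrays limit the precision, and signal over background is unknown.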
